A study of Mus musculus with 8 samples.

Results

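The Eph, ephrin, Slit-Robo and netrin genes are 34 genes of contact-dependent and secreted guidance cues and their receptors. They were taken as every probe that the scanner files name after one of them and that both array designs carry, which gave 49 of 39429 probes, for 34 of 30139 named genes. They comprise 13 Eph receptors, 8 ephrins, 3 Slits, 2 Robo receptors, 2 netrins, 4 UNC5 receptors, and Dcc and Neo1. The RNA came from mouse kidney rudiments of stage E11.5, dissected from NMRI embryos of both sexes, from which cells with GFP were sorted and pooled. Tbx18 null pools (n = 3) came from Tbx18(GFP/GFP) embryos, in which both Tbx18 alleles carry GFP. Tbx18VP16 pools (n = 2) came from Tbx18(cre/+);Hprt(CAG:Tbx18VP16-GFP) embryos. In these, Cre made from a Tbx18 allele switches on a fusion of Tbx18 with the VP16 activation domain, with GFP, behind the broadly active CAG promoter at Hprt. Control pools (n = 3) came from Tbx18(GFP/+) embryos. The embryos of every group thus carry at least 1 Tbx18 allele altered by GFP or Cre, and none of the pools is wild type. In null and control pools GFP marks cells whose Tbx18 locus is active, while in Tbx18VP16 pools it also stays on in descendants of cells that once made Cre.

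Eph receptors are receptor tyrosine kinases that bind ephrins on touching cells, and both sides can signal, so that cells sort out or form boundaries. Slits are secreted ligands of Robo receptors, and in mouse kidney development SLIT2 and ROBO2 limit where the ureteric bud grows out. Netrins are laminin-related secreted cues. They attract through DCC or neogenin and repel through UNC5 receptors. TBX18, a T-box factor, is found in the mesenchyme that wraps the early ureter, and VP16 turns a DNA-binding protein into a strong activator, so the design sets loss of the factor beside an activating form of it.

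Levels below are log2 signals relative to the 75th percentile of each array, so a level of 0 equals that percentile. Differences are in log2 with the standard error (SE) of the limma fit. A gene was called when its Benjamini-Hochberg adjusted p over all genes tested was below 0.05. A probe was well above background when the scanner software had so marked at least a share of 0.5 of its spots. By that measure 29 of the 34 genes were seen on all 8 arrays, and Epha6 and Unc5d on none. The differences were tested for 31 members between null and control and for 32 in the comparisons with Tbx18VP16. In sorted pools, fewer cells of a type and less RNA per cell cannot be told apart.

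Loss of Tbx18 went with more Slit1 and less Epha7. Slit1 was 2.07 ± 0.29 (SE) higher in Tbx18 null than in control pools, and Epha7 was 1.24 ± 0.26 (SE) lower. Neither passed the test when the arrays were taken as independent (adjusted p = 0.105 and 0.253, n = 3 against 3). Both passed when the replicate number, which pairs null with control pools, was a block (adjusted p = 0.0408 and 0.0371). With normexp background correction the Slit1 difference was 1.38. Without the block 0 of the 31 members tested were called by limma, against 0 of 19710 genes (0%), and 4 members had an unadjusted p below 0.05, against 4.83% of genes. With it 2 members were called, where the share over all genes was 0.964% (0.492% higher, 0.472% lower).

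The activating form of Tbx18 went with more Ntn1, Ephb1 and Slit2 and with less Epha7. Ntn1 was 3.30 ± 0.36 (SE) higher in Tbx18VP16 than in control pools, Ephb1 1.77 ± 0.41 and Slit2 1.31 ± 0.31, and Epha7 fell by 1.82 ± 0.28. Epha8 also passed, and was at least 1.75-fold lower than in control by a bound that was not itself tested. It was not well above background in either Tbx18VP16 pool and met the filter on dim probes only through null and control arrays. These 5 of 32 members were called, 3 higher and 2 lower, where 5.32% of the 20599 genes tested were called, 2.04% higher and 3.28% lower. With slide as a random block only Epha7 and Ntn1 remained, and Epha8, Ephb1 and Slit2 had adjusted p of 0.0547, 0.0612 and 0.0579. In a fit of the authors' deposited values Epha8 (adjusted p = 0.0728) and Ephb1 (0.0570) were not called. None of the 5 was called when either Tbx18VP16 array was left out, a setting that left 52 or 40 called genes in all. Without control replicate 2 only Ntn1 was called, without null replicate 2 Epha7 and Ntn1, without null replicate 3 Epha7, Ntn1 and Slit2, and without control replicate 1 Epha7, Ntn1 and Epha3. Both Tbx18VP16 arrays were on 1 slide, of a design that no other pool was put on, so slide, design and group cannot be told apart.

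**Figure D1:**
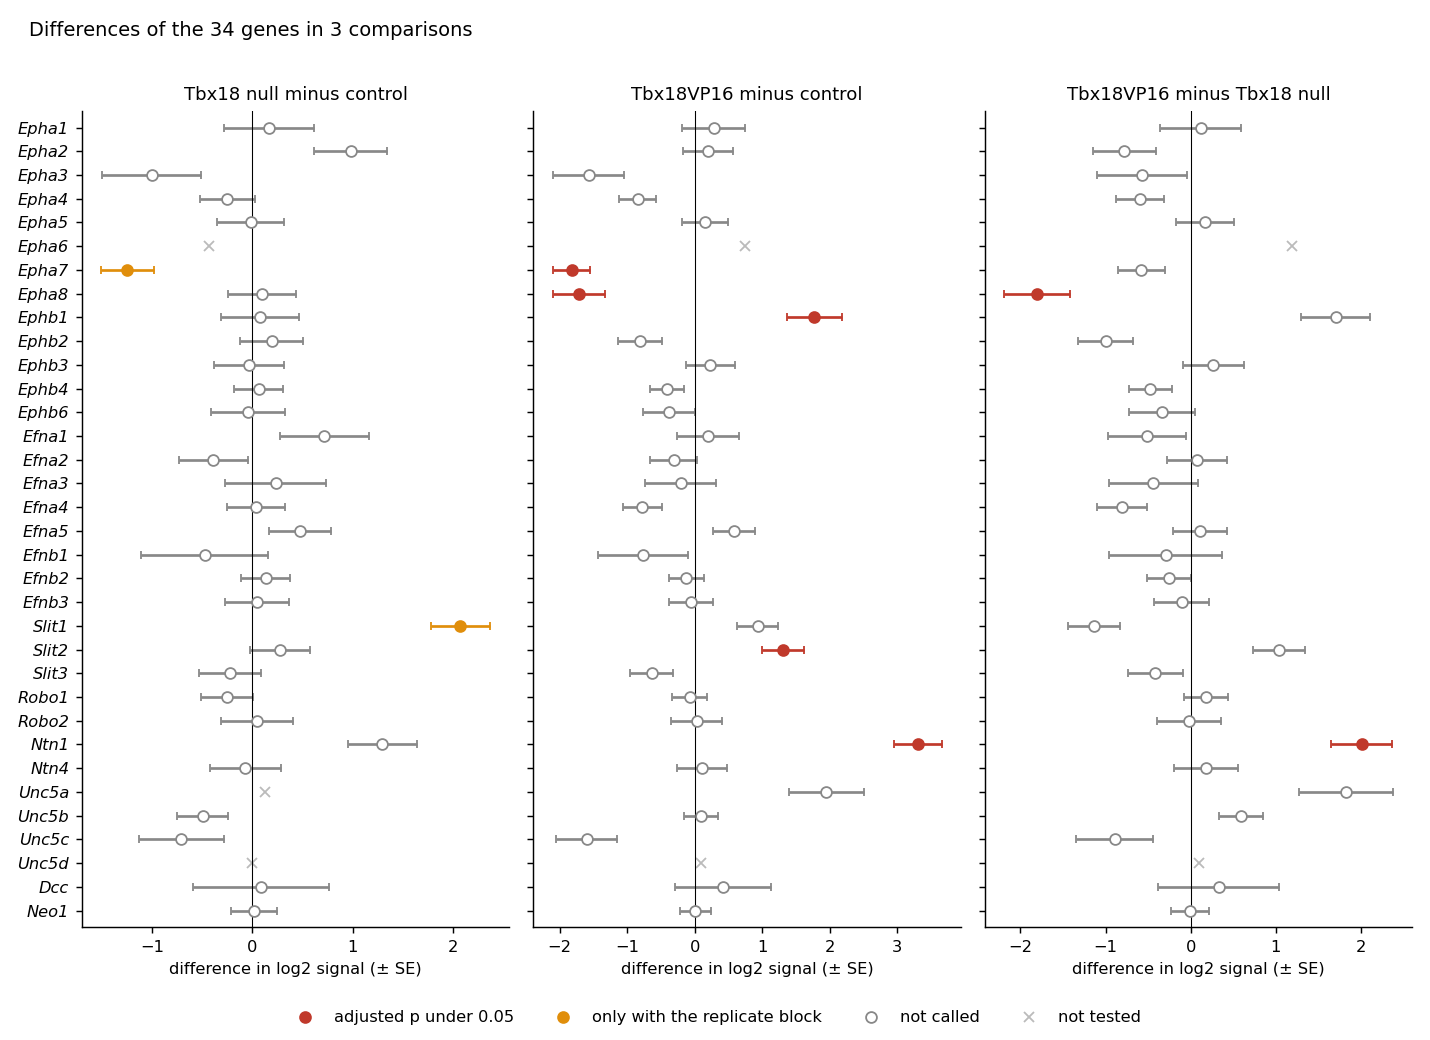
Differences in log2 signal (x axis, ± SE of the limma fit) of the 34 guidance genes, listed from Eph receptors at the top to netrin receptors at the bottom, for Tbx18 null minus control, Tbx18VP16 minus control and Tbx18VP16 minus Tbx18 null. Filled red points passed an adjusted p of 0.05 without the replicate block, and orange points, used in the null panel alone, passed only with it. Open points did not pass and crosses mark genes not tested. The block was not used in the Tbx18VP16 panels. Ntn1 lies farthest to the right in both Tbx18VP16 panels and Slit1 in the null panel.

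The sequences before the transcription start are shown for the 4 called members of the Tbx18VP16 comparison that the RefSeq promoter table (GRCm38.p6) holds, since TBX18 is a DNA-binding protein. Each run has 250 bases, reads 5′ to 3′ in the direction of the gene and ends at the base before the start. Epha7 has 2 starts in the table, of which the one with the lower coordinate is given. None of these 4 runs holds the letters GGTGTG, the core of the T-box motif, or their reverse complement CACACC, so all letters are in lower case. The windows lie at chr4:28812881-28813130 (plus strand), chr4:136956817-136957066 (minus strand), chr9:102354694-102354943 (minus strand) and chr5:47982905-47983154 (plus strand).
Epha7: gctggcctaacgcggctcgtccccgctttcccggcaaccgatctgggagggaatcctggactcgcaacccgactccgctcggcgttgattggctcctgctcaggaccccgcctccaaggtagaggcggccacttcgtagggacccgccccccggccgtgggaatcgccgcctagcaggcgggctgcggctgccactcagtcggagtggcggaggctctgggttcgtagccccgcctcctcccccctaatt
Epha8: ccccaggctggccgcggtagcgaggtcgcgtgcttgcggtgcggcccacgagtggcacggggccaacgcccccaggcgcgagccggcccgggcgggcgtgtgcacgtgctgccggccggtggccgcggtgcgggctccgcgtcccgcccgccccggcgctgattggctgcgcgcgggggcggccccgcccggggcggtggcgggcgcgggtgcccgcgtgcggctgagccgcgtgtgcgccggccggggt
Ephb1: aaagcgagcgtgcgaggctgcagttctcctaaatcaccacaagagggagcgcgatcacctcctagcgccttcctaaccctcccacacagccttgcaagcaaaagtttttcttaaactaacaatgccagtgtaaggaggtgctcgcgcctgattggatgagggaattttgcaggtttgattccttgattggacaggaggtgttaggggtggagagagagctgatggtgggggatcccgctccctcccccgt
Slit2: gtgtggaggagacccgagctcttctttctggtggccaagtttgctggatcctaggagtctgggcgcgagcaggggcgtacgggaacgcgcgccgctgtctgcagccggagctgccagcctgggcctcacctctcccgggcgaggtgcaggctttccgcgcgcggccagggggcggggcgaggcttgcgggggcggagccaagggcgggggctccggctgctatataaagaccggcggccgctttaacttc

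The letters AGGTGTGA, a T-box site, and their reverse complement TCACACCT were searched on both strands from 250 bases before to 50 bases after each start. They were in 419 of 32851 windows of all genes (1.28%) and in 0 of the 34 windows of the 29 members that the table holds. The shorter GGTGTG, which lies inside that site, was in 6257 windows of all genes (19.0%) and in 7 of the 34 member windows. These were both windows of Efna1, and 1 window each of Efna3, Efna4, Efnb1, Epha5 and Robo2. Efna1, Efna3 and Efna4 are ephrin-A genes that lie close together on chromosome 3. The 30 bases around each core of these 3 genes are shown with the core in capitals, for comparison with the runs above that lack it. They lie on the minus strand at chr3:89280952-89280981 and chr3:89279846-89279875 for Efna1, at chr3:89321774-89321803 for Efna3 and at chr3:89338048-89338077 for Efna4.
Efna1, start 1: cagaaacccccgcccatCACACCctgcaac
Efna1, start 2: cacccccaccccCACACCcgtaagtgagca
Efna3: gtggtttcctccGGTGTGtggcgcggcggc
Efna4: tctaggagcctcCACACCcctcctccgttc

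None of the 3 ephrin-A genes with that core was called in any comparison. Efna1, a ligand of EPHA2, differed by 0.72 ± 0.44 (SE) between null and control and by 0.20 ± 0.46 between Tbx18VP16 and control. For Efna3, on its probe of highest level, the differences were 0.23 ± 0.50 and -0.21 ± 0.53, and for Efna4 0.03 ± 0.29 and -0.77 ± 0.29. The last of these values had an adjusted p of 0.167. A match of letters is not a binding site, and its absence says only that these letters are not in these windows.

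Among the EphA receptors, Epha7 differed most between null and control. In mice Epha7 acts together with Epha4 in the mesenchyme around the cloaca when the nephric duct joins the cloaca. The Epha7 probe of highest level (chromosome 4, plus strand, 28891069 to 28891128, mm9 as in the files) starts at base 3151 of its transcript. Its levels were 1.51, 1.20 and 0.93 in Tbx18 null pools, 0.85 and 0.42 in Tbx18VP16 pools, and 2.67, 2.48 and 2.22 in control pools. Every null and Tbx18VP16 pool was below every control pool. The null difference was almost the same in each pair of pools, with -1.16, -1.28 and -1.29. Tbx18VP16 was 1.82 ± 0.28 (SE) lower than control (adjusted p = 0.0128), and both comparisons use the same 3 control pools. Tbx18VP16 minus null was -0.58 ± 0.28 (SE; adjusted p = 0.261), although these groups did not overlap either.

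Epha7 has 2 further probes on the arrays. The files assign them to another Epha7 transcript than the probe above, of which they start at bases 1900 and 2238. The probe at base 1900 was at -0.67, -0.97 and -1.10 in null pools, -0.96 and -1.27 in Tbx18VP16 pools, and 0.38, 0.49 and 0.28 in control pools. All null and Tbx18VP16 values again lay below the control values, with differences of -1.29 ± 0.23 (SE; adjusted p = 0.197 over 25651 probes) and -1.50 ± 0.24 (adjusted p = 0.0175 over 26866 probes). The probe at base 2238 was at -3.92, -3.29 and -3.20 in null pools, -2.96 and -2.81 in Tbx18VP16 pools, and -2.83, -1.83 and -1.45 in control pools. There the null pools stayed below control, by 1.43 ± 0.41 (SE; adjusted p = 0.565), while Tbx18VP16 reached control pool 1 and the difference was -0.85 ± 0.42 (adjusted p = 0.300). The 3 probes thus had the same direction in both comparisons, and 2 of them passed the test for Tbx18VP16.

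**Figure D2:**
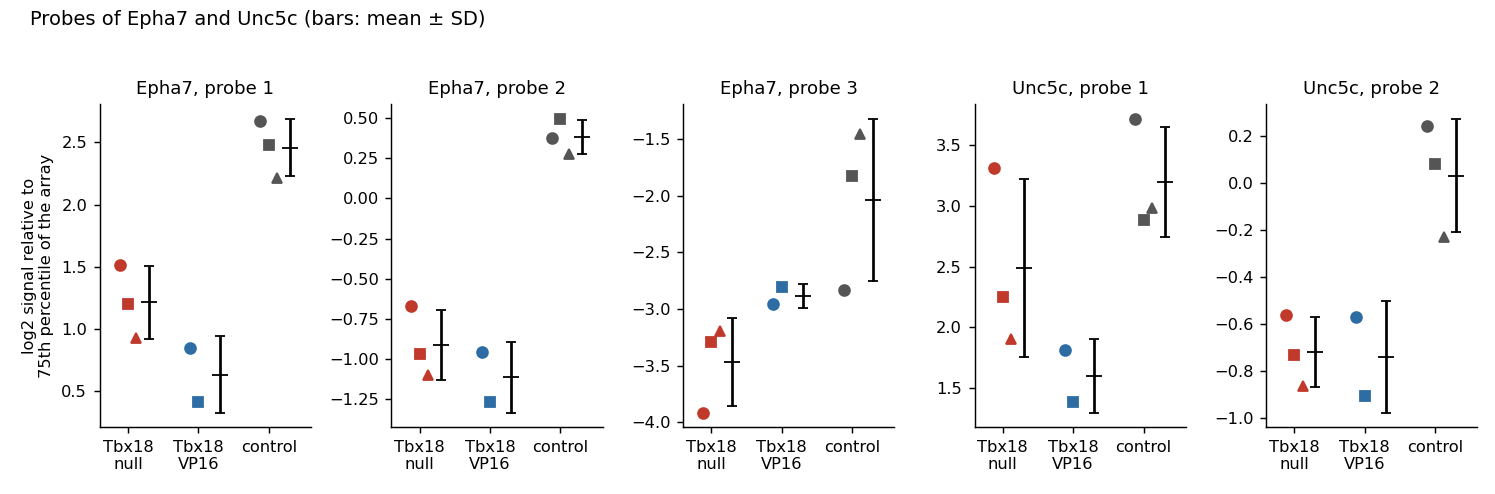
Levels (y axis, log2 signal relative to the 75th percentile of the array) on the 3 probes of Epha7 and the 2 probes of Unc5c, in Tbx18 null, Tbx18VP16 and control pools from left to right. Circles, squares and triangles are replicates 1, 2 and 3, and bars are mean ± SD. Epha7 probe 1 starts at base 3151 of its transcript, and probes 2 and 3 at bases 1900 and 2238 of another Epha7 transcript. On probes 1 and 2 of Epha7 all null and Tbx18VP16 pools lie below all control pools.

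Epha8, another EphA receptor kinase, was near the limit of detection. Its single probe (chromosome 4, minus strand, 136485335 to 136485394, mm9) was at -4.91, -5.57 and -5.70 in null pools, -6.84 and -7.56 in Tbx18VP16 pools, and -4.98, -5.60 and -5.89 in control pools. The Tbx18VP16 values were the lowest, and null and control overlapped. The probe was well above background on 2 of 3 null arrays, on neither Tbx18VP16 array and on 2 of 3 control arrays. The fold is therefore a bound. It takes, on each Tbx18VP16 array, the dimmest signal that counted as well above background, or the Epha8 signal where that was brighter. By this bound, which was not itself tested, Epha8 was at least 1.87-fold lower than null and at least 1.75-fold lower than control. The limma fit used the signals as measured, with those of Tbx18VP16 not well above background. It gave -1.81 ± 0.38 (SE; adjusted p = 0.0463) against null and -1.71 ± 0.38 (adjusted p = 0.0440) against control. With normexp background correction the adjusted p was 0.157 against null and 0.191 against control, and the call ended in both. With no filter on dim probes it ended against null.

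Epha3, whose ligands include ephrin-A5, was at -4.48, -3.36 and -3.70 in null pools, -4.12 and -4.71 in Tbx18VP16 pools, and -3.85, -2.43 and -2.27 in control pools. The Tbx18VP16 pools lay below all control pools, while null overlapped control through control pool 1. Neither difference passed the test, with -1.0 ± 0.49 (SE; adjusted p = 1.0) for null and -1.57 ± 0.53 (adjusted p = 0.132) for Tbx18VP16. Epha2, the receptor that ephrin-A1 binds best, was at -3.02, -2.50 and -2.01 in null pools, -3.20 and -3.38 in Tbx18VP16 pools, and -3.99, -3.07 and -3.40 in control pools. Null lay above control without overlap, by 0.98 ± 0.36 (SE; adjusted p = 0.862), and Tbx18VP16 lay within the control range. Epha4 was 0.84 ± 0.28 (SE; adjusted p = 0.126) lower in Tbx18VP16 than in control. With the replicate block the difference was -0.97 ± 0.25 (adjusted p = 0.0442), although Tbx18VP16 numbers do not pair with control. On the probe of highest level, Epha1 and Epha5 differed by 0.28 or less in size against control in both comparisons. The 2 further Epha5 probes differed by 0.22 ± 0.21 and 0.64 ± 0.45 (SE) in null, and by -0.53 ± 0.21 and 0.08 ± 0.46 in Tbx18VP16, and did not pass either. Epha6 had no signal well above background.

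Ephb1 was the only EphB receptor called without the replicate block. EphB receptors mainly bind the transmembrane ephrin-B ligands. The Ephb1 probe (chromosome 9, minus strand, 101824549 to 101824608, mm9) was at -1.44, -2.25 and -2.38 in null pools, -0.51 and -0.14 in Tbx18VP16 pools, and -2.02, -2.70 and -1.56 in control pools. Both Tbx18VP16 pools stood above the other 6, and null and control overlapped, with a difference of 0.07 ± 0.39 (SE; adjusted p = 1.0). The rise in Tbx18VP16 was 1.77 ± 0.41 against control (adjusted p = 0.0478), while 1.70 ± 0.41 against null missed the threshold (adjusted p = 0.0623). Under quantile normalisation the adjusted p against control was 0.0606, so the call stands close to its limit. The other 4 EphB genes, Ephb2, Ephb3, Ephb4 and the kinase-inactive Ephb6, were not called in any comparison without the block. Of these, on the probe of highest level, Ephb2 had the largest Tbx18VP16 difference, -0.81 ± 0.32 (SE; adjusted p = 0.191) against control. With the replicate block Ephb2 passed against control (-0.99 ± 0.26; adjusted p = 0.0471) and against null (-1.18 ± 0.26; adjusted p = 0.0307). Tbx18VP16 numbers do not pair with those of either group, however. Without the block, the 2 probes of Ephb6 differed in sign in Tbx18VP16 against control, with -0.38 ± 0.39 and 0.99 ± 0.41 (SE).

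None of the 8 ephrins was called. The 5 ephrin-A genes are held to the membrane by a lipid anchor. On their probe of highest level, differences ran between -0.39 and 0.72 for null against control. For Tbx18VP16 against control they ran between -0.77 and 0.58. The 3 ephrin-B genes, which span the membrane, ran between -0.47 and 0.13 and between -0.77 and -0.06 in the same order, also on that probe. The second Efna3 probe differed by 0.32 ± 1.23 (SE) in null and by 1.20 ± 1.29 in Tbx18VP16. For the second Efnb2 probe the Tbx18VP16 difference was -0.58 ± 0.58 (SE), and neither of these probes passed. Efna5 was higher in null in each pair, by 0.47, 0.43 and 0.52, and its groups overlapped (0.47 ± 0.31 SE; adjusted p = 1.0). For Efnb1, which is X-linked, the pairs disagreed in sign, with 0.27, -0.21 and -1.48. The third of these pairs had 10 ng of input RNA where the others had 20 ng.

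**Figure D3:**
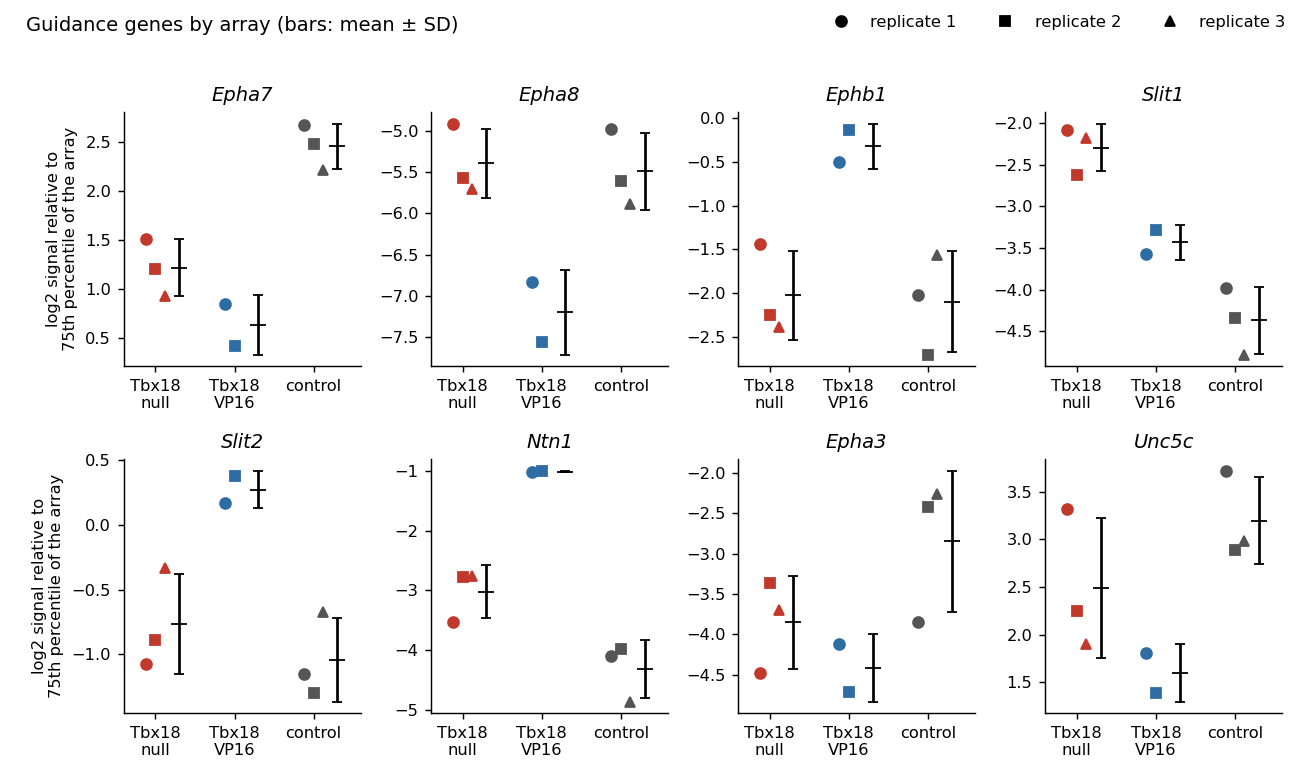
Levels (y axis, log2 signal relative to the 75th percentile of the array) of 8 guidance genes in Tbx18 null, Tbx18VP16 and control pools, from left to right in each panel. Circles, squares and triangles are replicates 1, 2 and 3, and bars are mean ± SD. Ntn1, Slit2 and Ephb1 are highest in both Tbx18VP16 pools, Slit1 in the 3 null pools, and Epha7 in the 3 control pools.

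The 3 Slit ligands did not move together. The Slit1 probe (chromosome 19, minus strand, 41674749 to 41674808, mm9) starts at base 5176 of its transcript. Slit1 was at -2.09, -2.62 and -2.18 in null pools, -3.58 and -3.29 in Tbx18VP16 pools, and -3.98, -4.34 and -4.78 in control pools. The 3 groups did not overlap, with null highest and control lowest. Null exceeded control by 1.89, 1.72 and 2.60 within the pairs. In a blocked fit without pair 1 or without pair 2 the adjusted p was 0.110 and 0.210 for Slit1, and 0.121 and 0.250 for Epha7, and only without pair 3 did both calls remain. Tbx18VP16 minus control was 0.94 ± 0.30 (SE; adjusted p = 0.122) and Tbx18VP16 minus null was -1.13 ± 0.30 (adjusted p = 0.0819).

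Slit2, the Slit with a known part in placing the ureteric bud, was at -1.08, -0.89 and -0.33 in null pools, 0.17 and 0.37 in Tbx18VP16 pools, and -1.15, -1.30 and -0.68 in control pools. Its probe lies on the plus strand of chromosome 5 (48696673 to 48696732, mm9). Both Tbx18VP16 pools were above every other pool, and null overlapped control with a difference of 0.27 ± 0.30 (SE; adjusted p = 1.0). The rise against control, 1.31 ± 0.31 (adjusted p = 0.0492), was just inside the threshold, and with no filter on dim probes the adjusted p was 0.0612. Against null the difference was 1.04 ± 0.31 (adjusted p = 0.104). Slit3 was not called, with -0.64 ± 0.32 (SE; adjusted p = 0.281) between Tbx18VP16 and control. The receptors Robo1 and Robo2 did not pass in any comparison, and on the probe of highest level their differences against control lay between -0.25 and 0.05. The 2 further Robo2 probes differed by -0.07 ± 0.45 and -0.30 ± 0.47 (SE) in null, and by -0.34 ± 0.47 and -0.87 ± 0.55 in Tbx18VP16.

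Ntn1, which encodes netrin-1 and is made by stromal progenitors in the developing mouse kidney, had the largest difference of all 34 genes. Its levels were -3.53, -2.77 and -2.76 in null pools, -1.02 and -1.0 in Tbx18VP16 pools, and -4.10, -3.99 and -4.87 in control pools. The 3 groups did not overlap, with Tbx18VP16 highest and control lowest. Tbx18VP16 exceeded control by 3.30 ± 0.36 (SE; adjusted p = 0.00370) and null by 2.01 ± 0.36 (adjusted p = 0.0279). Null exceeded control by 1.30 ± 0.35 (adjusted p = 0.447, and 0.174 with the replicate block), and the pairs gave 0.56, 1.22 and 2.10. Within the first slide, which holds pairs 1 and 2, the null difference was 0.89, and with normexp background correction it was 0.85. For Tbx18VP16 against control, normexp gave 2.42, which also passed.

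The Ntn1 probe starts at base 5558 of its transcript (chromosome 11, minus strand, 68022986 to 68023045, mm9). A second Ntn1 probe, at base 1692, was well above background on no array, so the Ntn1 values rest on 1 probe. Ntn4 was not called, at 0.11 ± 0.37 (SE; adjusted p = 0.885) in Tbx18VP16 against control.

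Of the receptors of netrins, Unc5c, which mediates repulsion, was at 3.31, 2.25 and 1.91 in null pools, 1.81 and 1.38 in Tbx18VP16 pools, and 3.72, 2.89 and 2.98 in control pools. Tbx18VP16 lay below all control pools, by 1.60 ± 0.45 (SE), and missed the threshold (adjusted p = 0.0830). Null overlapped control, at -0.71 ± 0.42 (adjusted p = 1.0). The second Unc5c probe differed by -0.75 ± 0.24 in null and by -0.77 ± 0.25 in Tbx18VP16, with no overlap with control on either side and adjusted p over probes of 0.720 and 0.134. Unc5a was at -6.74, -7.10 and -6.13 in null pools, -5.37 and -4.30 in Tbx18VP16 pools, and -6.45, -7.78 and -6.12 in control pools. It was well above background on 1 of 3 null arrays, on both Tbx18VP16 arrays and on 1 of 3 control arrays, and the Tbx18VP16 difference of 1.95 ± 0.55 (SE) did not pass (adjusted p = 0.0862). With normexp background correction it was 0.21.

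Unc5b, known from endothelium, was at 0.82, 0.86 and 0.82 in null pools, 1.34 and 1.51 in Tbx18VP16 pools, and 0.96, 1.38 and 1.64 in control pools. Null lay below control without overlap, by 0.49 ± 0.25 (SE; adjusted p = 1.0), and Tbx18VP16 lay inside the control range. Neo1, which encodes neogenin, was even across all pools, with a mean of 1.32 ± 0.19 in null (SD, n = 3), 1.31 ± 0.09 in Tbx18VP16 (n = 2) and 1.30 ± 0.15 in control (n = 3). The value for Dcc came from a probe whose position in the files is on chromosome 7, while both other Dcc probes, on chromosome 18, were well above background on no array. That value, 0.42 ± 0.71 (SE; adjusted p = 0.761) in Tbx18VP16 against control, is therefore uncertain as a measure of Dcc.

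**Figure D4:**
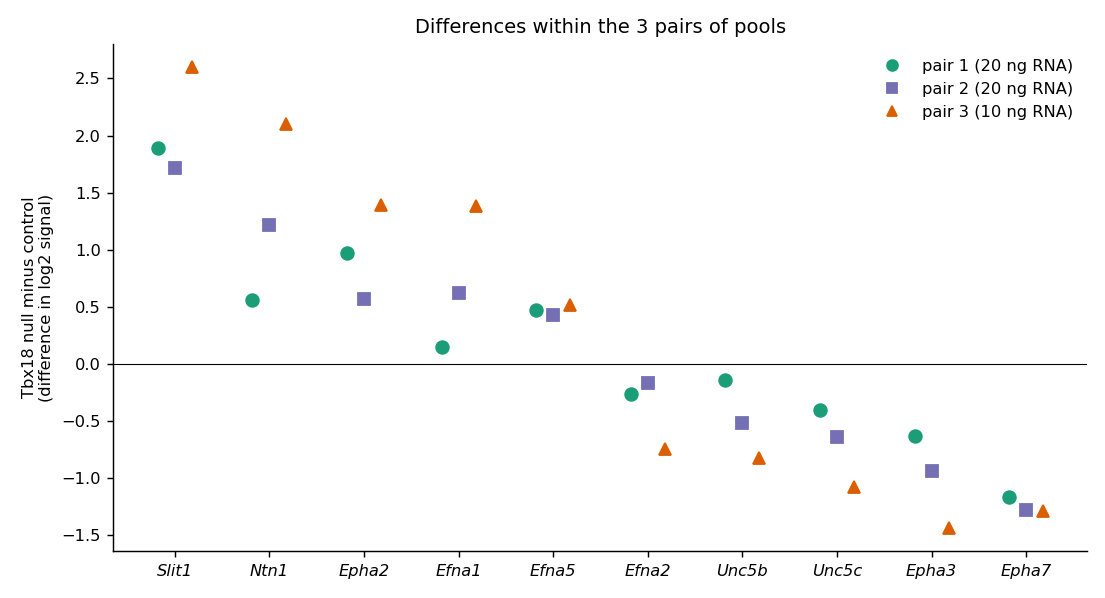
Differences within pairs of pools (y axis, Tbx18 null minus control in log2 signal) for the 10 guidance genes of smallest p in that comparison, ordered from highest to lowest fitted difference. Circles, squares and triangles are pairs 1, 2 and 3, the last with 10 ng of input RNA and the others with 20 ng. Each of the 10 genes has the same sign in all 3 pairs, and pair 3 lies farthest from 0 in every one of them.

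Counted without a model, 5 of 31 members tested did not overlap between null and control, where 7.75% of genes tested did not overlap. Of these, 3 were higher in null (4.18% of genes) and 2 lower (3.58%). In Tbx18VP16 against control 17 of 32 members did not overlap, where the share over all genes was 47.6%, so this count is close to the background. It held 6 members higher in Tbx18VP16 (17.4% of genes) and 11 lower (30.3%). Against null 14 members did not overlap (48.1% of genes), 5 of them higher (16.2%) and 9 lower (31.9%). With a difference of at least 1 as well, the counts were 3 members in null against control (2.48% of genes), 8 in Tbx18VP16 against control (16.7%) and 6 in Tbx18VP16 against null (15.6%). At an unadjusted p below 0.05 there were 12 members in Tbx18VP16 against control, where 22.8% of genes lay, and 9 against null, where 22% lay. In Tbx18VP16 against null, 2 members passed the adjusted threshold, where 3.66% of genes did: Ntn1 was higher (1.17% of genes) and Epha8 lower (2.49%). Neither was called there without null replicate 2 or without either Tbx18VP16 array. The median difference over the 34 members was 0.04, 0.02 and -0.06 in null against control, Tbx18VP16 against control and Tbx18VP16 against null. Over all genes tested these medians were 0.01, -0.14 and -0.15.

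Other guidance genes, and the adaptors and kinases that act downstream of these receptors, were looked at as a list. Of 54 listed, 51 were tested, and 0 were called by limma in null against control and 0 in Tbx18VP16 against control. At an unadjusted p below 0.05 there were 3 (4.83% of all genes) and 10 (22.8% of all genes). With the replicate block 0 were called in null against control. In Tbx18VP16 the block gave 1 higher and 4 lower against control, where 995 and 2645 of 20599 genes were called. Against null it gave 2 higher and 2 lower, where 766 and 2519 genes were called. Srgap3, whose protein binds Robo receptors, was 1.38 higher in Tbx18VP16 than in null (adjusted p = 0.0262). It was the 1 gene of the list called there without the block, where 3.66% of all genes were called. Against control Srgap3 was 0.77 ± 0.24 (SE) higher in Tbx18VP16 (adjusted p = 0.111) and 0.61 ± 0.24 lower in null (adjusted p = 0.948), and neither passed. Those of smallest p in null against control were Ntng1, a membrane-anchored netrin relative (-1.80 ± 0.59 SE; adjusted p = 0.681), and Ablim1, an actin-binding protein (1.04 ± 0.41; adjusted p = 0.939). For Tbx18VP16 against control they were the adaptor Dab1 (-1.20 ± 0.29; adjusted p = 0.0577) and Flrt2, a ligand of UNC5 receptors (1.55 ± 0.42; adjusted p = 0.0755).

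The arrays differed little in the share of probes well above background, 60.1% to 66.0%, and had no saturated spot. Their number limits the precision. Tbx18 was at -2.40, -1.34 and -2.35 in null pools, 1.34 and 1.06 in Tbx18VP16 pools, and -0.02, 1.20 and 1.04 in control pools. Markers of renal stroma and ureteric mesenchyme were well above background on all 8 arrays for 12 of 12 and 12 of 13 genes. The summed signal of the renal stroma list, in units of the 75th percentile, lay between 138 and 184 in null, 191 and 230 in Tbx18VP16 and 234 and 247 in control, with 11 of 12 genes lower in null than in control. The 16 nephron progenitor markers summed to 71.4 to 75.6 in null, 74.8 to 79.0 in Tbx18VP16 and 42.0 to 54.1 in control. Against control 14 of 16 were higher in null and 13 in Tbx18VP16, and 14 were well above background on every array. Their median difference against control was 1.28 in null but 0.25 in Tbx18VP16, since a sum weighs bright genes most. Wt1, for 1, was at 4.30 and 4.66 in Tbx18VP16 and at 1.48 to 2.29 in control. Null pool 3 stood apart in markers of other cells. The 14 endothelial markers summed to 5.73, 5.47 and 19.9 in null, between 2.35 and 2.74 in Tbx18VP16 and between 3.97 and 4.99 in control, and the 13 erythroid markers to 6.15, 26.7 and 544 in null, 3.55 and 8.94 in Tbx18VP16, and 7.25, 11.6 and 32.4 in control. Summed markers of neural crest and neurons, 13 in number, lay between 8.64 and 11.1 in null, 6.69 and 7.77 in Tbx18VP16, and 6.55 and 7.91 in control. Isl1 had the highest level of these on every array. Of the 13, 10 were higher in null than in control, while 9 were lower in Tbx18VP16 than in control, with 2 called. Against null, 11 were lower in Tbx18VP16, with 4 called. Of all genes tested, 10120 of 19710 were higher in null than in control. In Tbx18VP16, 12189 of 20599 were lower than in control (3.28% called lower) and 12364 lower than in null (2.49% called lower). For 20 markers of ureteric epithelium the sums were 4.10, 9.33 and 21.5 in null, 5.09 to 5.86 in Tbx18VP16 and 3.20 to 5.16 in control. For 7 platelet markers they were 0.222 to 1.72 in null, 4.55 and 8.92 in Tbx18VP16, and 0.198 to 0.242 in control. Of the last 5 lists, 7 of 14, 8 of 13, 9 of 13, 10 of 20 and 2 of 7 genes were well above background on every array, and 1 endothelial marker on none. The part of these cells in the values of Ntn1, Slit1, Slit2, Ephb1, Epha7 and Epha8 was not tested.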

How the data were processed

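RNA of 8 pools of about 100000 sorted cells was measured on Agilent arrays of 1 colour, from 20 ng of RNA, or 10 ng for replicate 3 of null and control. Per the file headers, the authors' scanner files hold spot intensity values corrected for background by Agilent Feature Extraction 10.7.3.1, with other columns that mark outliers, saturated spots and spots well above background. As an alternative, the linear intensity values of the series table that the authors deposited were used, whose floor of 10 was reached by 11190 probes. Its normalisation is not stated here.

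Outlier spots (1.86% to 2.55%) were left out, the spots of a probe were averaged, and the log2 level was set relative to the 75th percentile of the array, taken over the 39429 probes of both designs. The 75th percentile of the signal ran between 976 and 2129. RefSeq tables (GRCm38.p6) gave names to 27508 probes through accessions, to 3544 through symbols and to 404 through synonyms. A further 5134 kept the files' own name, and 2839 have no name. Probe coordinates are those of the files (mm9), and no exon or UTR annotation of that build was used here.

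Probes entered the test when they were well above background on 3 or more of the 6 null and control arrays, or on 2 or more of all 8. The tested probe of highest mean level stood for its gene. Null and control were compared on their 6 arrays, and Tbx18VP16 with control and with null in a fit of 3 groups on all 8, by lmFit and eBayes of limma 3.58.1 under R 4.3.3. Tests are two-sided, with Benjamini-Hochberg adjustment over all genes tested. Replicates are separate pools, and p-values measure the spread between pools. Numbers were checked as pairs: deviations of null and control pools of the same number from their group means correlated over 19710 genes at 0.827, 0.708 and 0.430, and pools of different number at -0.751 to 0.316. Values per array are given for members called in any comparison without the replicate block, or with it in null against control. They are also given for tested members that did not overlap with a difference of at least 1. Epha4 and Ephb2, called only with the block and only in Tbx18VP16 comparisons, are given by their differences. Values per array of Epha2 and Unc5b were added after their values were seen. Of the other guidance genes those called without the block and those of smallest p are named. The members and lists were chosen with earlier results of these data known.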

Additional observations from a re-analysis of the deposited data

How the results depend on the processing

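The number of genes called in null against control was 0, and 1 with no filter, 14 with a stricter filter, 190 with the replicate block, 6 with slide as a block and 62 in a fit of all 8 arrays. Members called there were 0, but 2 with the replicate block and 1 (Slit1) in the fit of 8 arrays. Leaving out 1 array gave 0 to 3 genes and 0 members. The blocked fit without a pair, chosen after seeing the data, gave 0 to 765 genes and 0 to 3 members (Epha3, Epha7 and Slit1, without pair 3). In Tbx18VP16 against control, with 1095 genes and 5 members called, normexp background gave 623 genes and a median member difference of -0.14. The replicate block gave 3640 genes and 9 members, although Tbx18VP16 numbers do not pair with control (0.025 and -0.265). Members called with the block alone were Epha4, Ephb2, Unc5a and Unc5c. No filter gave 3 members, and slide as a random block 2, Epha7 and Ntn1. Leaving out 1 array gave 40 to 1924 genes, 0 to 6 members and medians of -0.12 to 0.0922. Ntn1 and Epha7 kept their calls under every setting except without either Tbx18VP16 array and, for Epha7, without control 2 (adjusted p = 0.0529). In Tbx18VP16 against null 753 genes and 2 members were called. There normexp gave 397 genes, 1 member and a median of -0.28, and the block 3285 genes, 8 members and -0.15. Those called there with the block alone were Ephb1, Ephb2, Slit1, Slit2, Unc5a and Unc5c. No filter, the stricter filter, slide as a random block and a fit of 5 arrays gave 1 member each. Leaving out 1 array gave 0 to 816 genes, 0 to 2 members and medians of -0.12 to -0.0401. Quantile normalisation and the authors' values moved the median of all genes by 0.12 and 0.11 against control, and by 0.13 and 0.12 against null. Genes called higher and lower were then 554 and 620, or 563 and 564, against control, where the setting used gave 420 and 675, and 352 and 414, or 389 and 395, against null, where it gave 241 and 512. The members whose values are given per array for a call, or for a difference of at least 1 without overlap, kept their sign in that comparison under every setting. Members near 0 need not have, and Ntn4 (0.11 in Tbx18VP16 against control) was at -0.26 with normexp. Causes of these shifts were not tested, apart from the fewer arrays or other probes tested that some settings bring.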

Other observations

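Fitted on the values of the authors' deposited table, Ntn4, a netrin of basement membranes, was 1.97 higher in Tbx18VP16 than in control (adjusted p = 0.00687). The scanner values gave 0.11. Against null the deposited values gave 1.55 (adjusted p = 0.0229) and the scanner values 0.18. In the deposited table the lowest value of 10 was reached by 11190 probes. Ntn4 was dim in the scanner values, between -5.66 and -4.57 on the arrays. It was well above background on 2 of 3 control arrays and on every null and Tbx18VP16 array. Hprt, the locus of the transgene, was at 2.82, 2.40 and 2.87 in null pools, -1.94 and -1.57 in Tbx18VP16 pools, and 2.74, 1.93 and 1.99 in control pools.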
